A study of Homo sapiens with 6 samples.

Results

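Mitochondrial ribosomal proteins are encoded by the nuclear genes whose symbols begin with MRPL, for the large subunit of the mitochondrial ribosome, or MRPS, for the small subunit. Every gene with such a symbol followed by a number was taken, without pseudogenes. The RefSeq table holds 77 protein-coding genes of this kind, of which 75 had a probe set naming 1 gene, 48 for the large and 27 for the small subunit, among 19775 genes measured in this way. Each gene was read from its brightest such probe set, without regard to its change between the cells.

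HT29 is a human colon adenocarcinoma cell line, and methotrexate (MTX) is an antifolate drug that inhibits dihydrofolate reductase. The resistant cells had been selected from HT29 by stepwise exposure to MTX, resisted 10 μM of the drug, and were kept with dialyzed serum in a medium lacking the end products glycine, hypoxanthine and thymidine. The sensitive cells were the parental HT29 line, kept with whole serum in Ham's F12, and effects of drug resistance and of medium therefore cannot be told apart. RNA of 3 resistant and 3 sensitive samples was hybridized to Affymetrix HG U133 Plus 2.0 arrays, and no source used here says that the samples of a group came from separate cultures, so the p-values reflect the spread between samples, and that spread may be technical.

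The deposited MAS5 signals were divided by the median of their array, and this scaled signal (array median = 1) is the level given throughout. The array medians were 13.3 to 16.9 in resistant cells and 14.2 to 15.4 in sensitive cells. Of the 10 colon epithelium markers, 8 passed the filter on dim genes. Of these, 5 were lower (62.5%) and 1 higher (12.5%) in resistant cells, against 22.5% and 12.4% of all tested genes. The summed level of the 10 was 1597 to 1795 in resistant and 2056 to 2268 in sensitive cells. The homeobox genes CDX1 and CDX2 were under a scaled signal of 1 on every array. The fibroblast markers summed to 12.7 to 15.8 in resistant and 2.72 to 3.91 in sensitive cells, of which the collagen gene COL1A1 alone passed the filter (log2 fold change 4.03, adjusted p = 3.3e-15). Endothelial markers summed to 3.12 to 3.50 in resistant and 2.19 to 2.80 in sensitive cells, and leukocyte markers to 377 to 412 in resistant and 408 to 460 in sensitive cells, nearly all of it from the lysozyme gene LYZ. LYZ was not called, while the dim leukocyte gene CD14 was lower (log2 fold change -2.81, adjusted p = 0.0013). CD14 averaged 0.463 in resistant and 2.41 in sensitive cells. The 3' to 5' signal ratio of ACTB, a sign of RNA integrity, was 1.17 to 1.30 on resistant and 1.12 to 1.17 on sensitive arrays, while that of GAPDH was 0.980 to 1.04 on resistant and 1.00 to 1.01 on sensitive arrays. The part of these differences in the results below was not tested.

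The mitochondrial ribosome translates the few messages of the mitochondrial genome, which encode membrane subunits of the respiratory chain and of ATP synthase. Its RNAs come from the mitochondrial genome, but all of its proteins are made in the cytosol from nuclear messages and imported. Some of these proteins descend from those of the bacterial ribosome, while others were added in the mitochondrial lineage and are called mitochondria-specific here. Nuclear genes for mitochondrial proteins commonly have promoters without a TATA box, and the transcription factors NRF1, GABPA (of the ETS family) and YY1 are known to act on many of them.

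Promoters of 8 chosen members are shown here in the direction of the gene, from the GRCh38.p14 assembly. Each runs from 150 bases before to 30 bases after a RefSeq transcription start. Capitals mark the letters GCGCA, any base, GCGC (NRF1), and the letters CCGGAAGT (ETS and GABPA) or AAGATGGC (YY1), searched on both strands. MRPS21 (chr1:150293711-150293890, plus strand), MRPL17 (chr11:6683311-6683490, minus strand) and MRPL27 (chr17:50373155-50373334, minus strand) were among the deepest falls, as was MRPS22 (chr3:139343844-139344023, plus strand). Of the 3 RefSeq starts of MRPS22 1 is shown, chosen for the largest number of marked matches. MRPL15, MRPL13 and MRPL58, which fell more deeply than MRPL27, are not among the promoters shown. MRPS11 (chr15:88467558-88467737, plus strand) and MRPL46 (chr15:88467359-88467538, minus strand) also fell, and their starts lie 320 bases apart in opposite directions. MRPL43 (chr10:100987468-100987647, minus strand) and MRPS30 (chr5:44808797-44808976, plus strand) had the largest rises.
MRPS21: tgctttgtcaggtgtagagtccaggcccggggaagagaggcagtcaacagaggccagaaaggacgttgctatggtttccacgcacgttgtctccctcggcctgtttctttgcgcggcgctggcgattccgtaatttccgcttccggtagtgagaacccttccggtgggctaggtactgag
MRPL17: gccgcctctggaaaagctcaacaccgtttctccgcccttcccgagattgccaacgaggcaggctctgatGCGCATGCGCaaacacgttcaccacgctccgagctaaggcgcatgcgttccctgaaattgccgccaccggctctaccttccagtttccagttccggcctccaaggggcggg
MRPL27: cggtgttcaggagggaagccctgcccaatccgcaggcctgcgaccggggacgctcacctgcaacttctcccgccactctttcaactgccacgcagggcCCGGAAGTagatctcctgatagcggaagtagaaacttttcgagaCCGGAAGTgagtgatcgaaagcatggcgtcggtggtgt
MRPS22: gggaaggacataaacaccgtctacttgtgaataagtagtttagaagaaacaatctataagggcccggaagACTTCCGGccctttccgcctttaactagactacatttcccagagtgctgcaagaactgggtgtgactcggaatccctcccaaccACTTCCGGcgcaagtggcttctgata
MRPS11: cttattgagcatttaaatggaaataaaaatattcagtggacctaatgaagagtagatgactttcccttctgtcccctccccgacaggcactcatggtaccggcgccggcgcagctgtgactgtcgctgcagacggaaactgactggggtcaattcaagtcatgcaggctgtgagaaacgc
MRPL46: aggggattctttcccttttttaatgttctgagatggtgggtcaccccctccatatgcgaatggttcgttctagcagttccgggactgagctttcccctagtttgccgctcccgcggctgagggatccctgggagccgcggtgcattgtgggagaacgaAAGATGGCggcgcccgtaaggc
MRPL43: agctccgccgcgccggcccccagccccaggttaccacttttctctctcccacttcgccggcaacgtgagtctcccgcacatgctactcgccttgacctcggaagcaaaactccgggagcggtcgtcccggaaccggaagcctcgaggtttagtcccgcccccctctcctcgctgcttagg
MRPS30: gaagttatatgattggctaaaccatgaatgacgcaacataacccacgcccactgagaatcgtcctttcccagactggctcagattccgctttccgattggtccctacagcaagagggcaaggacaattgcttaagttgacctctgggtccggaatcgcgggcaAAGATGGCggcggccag

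In these stretches MRPL17 held the NRF1 letters, MRPL27 and MRPS22 each held the ETS letters at 2 positions, and MRPL46 and MRPS30 held the YY1 letters just after the start, on the strand of the gene. MRPS21, MRPS11 and MRPL43 held none of the 3 in the bases shown. RefSeq windows of 300 bases, from 250 before to 50 after the start, were at hand for 67 of the 75 members. The YY1 letters were found in 20 of the 67 members (29.9%), 13 of the large and 7 of the small subunit, against 6.63% of 9661 tested genes with a window and 2.89% of 35116 windows in all. Windows of several starts of a gene can overlap, and the matches were at 21 distinct sites, of which 15 lay after a start and 17 on the strand of the gene. The ETS letters were in 11 members (16.4%), against 10.2% of tested genes and 4.14% of all windows. The NRF1 letters were in 9 members (13.4%), against 13.4% of tested genes and 5.78% of all windows. Of the 20 members with YY1 letters, 1 was higher and 5 were lower in resistant cells, against 4 higher and 22 lower of all 67 members with a window and 22.5% lower among all tested genes, and their median log2 fold change was -0.21, against -0.29 in the other members with a window. Members with the ETS letters had a median of -0.26, against -0.24 without, and those with the NRF1 letters -0.06, against -0.26.

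In resistant cells 26 of the 75 mitochondrial ribosomal protein genes were lower and 4 were higher than in sensitive cells, at an adjusted p under 0.05 over 11835 tested genes (34.9% of all genes passed in either direction). The deepest falls were those of MRPS21, MRPL17 and MRPL15, the only members to change at least 2-fold, and the largest rise was that of MRPL43. No member changed by 3-fold, as 4.13% of all tested genes did at an adjusted p under 0.05. The share called lower was 34.7%, against 22.5% of all tested genes and 30.3% of the 5962 tested genes whose level lay within the range of the members. The share called higher was 5.33%, against 12.4% of all tested genes and 12.2% in that range. Without regard to p, 114 of those 5962 genes changed at least 3-fold and 383 at least 2-fold, against 0 and 3 of the 75 members. Against tested genes in the level range, the share of falls is therefore near the background, and with this scaling the share of rises is under it. That range is not a match by level, since its median level was 27.1, against 50.7 for the members. The members had a median log2 fold change of -0.26, against -0.10 for all tested genes and -0.18 for those in the level range, and 55 of the 75 values were negative. Resistant signals lay all below the sensitive ones for 31 members (background 29.3%, or 38.2% in the level range) and all above for 7 (background 16.8%, or 15.5% in the level range), and the groups overlapped for 37. In RNA from whole cultures, less RNA per cell and fewer cells of a type cannot be told apart.

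The direction of the whole group was the same under each of 4 array scalings, with medians of -0.26 to -0.08, but the split of the calls was not. Quantile normalization, under which the median of all tested genes was 0.02 in place of -0.10, gave 23 members lower (30.7%) and 17 higher (22.7%), against 18.8% and 21.1% of all genes. Scaling each array to the median of only those probe sets that passed the filter gave 27 lower (36.0%) and 13 higher (17.3%), against 21.4% and 19.4% of all genes. All 4 members called higher with the array median were also called higher under both of these settings, as were 23 of the 26 lower ones under quantile normalization and 25 under the other. The test of the study's methods called 11 members lower and 1 higher with equal variances (9.49% and 4.85% of all genes), and no member with unequal variances, under which it called 1.13% of all genes lower and 0.642% higher. Values of single members below are for the array median and limma.

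**Figure D1:**
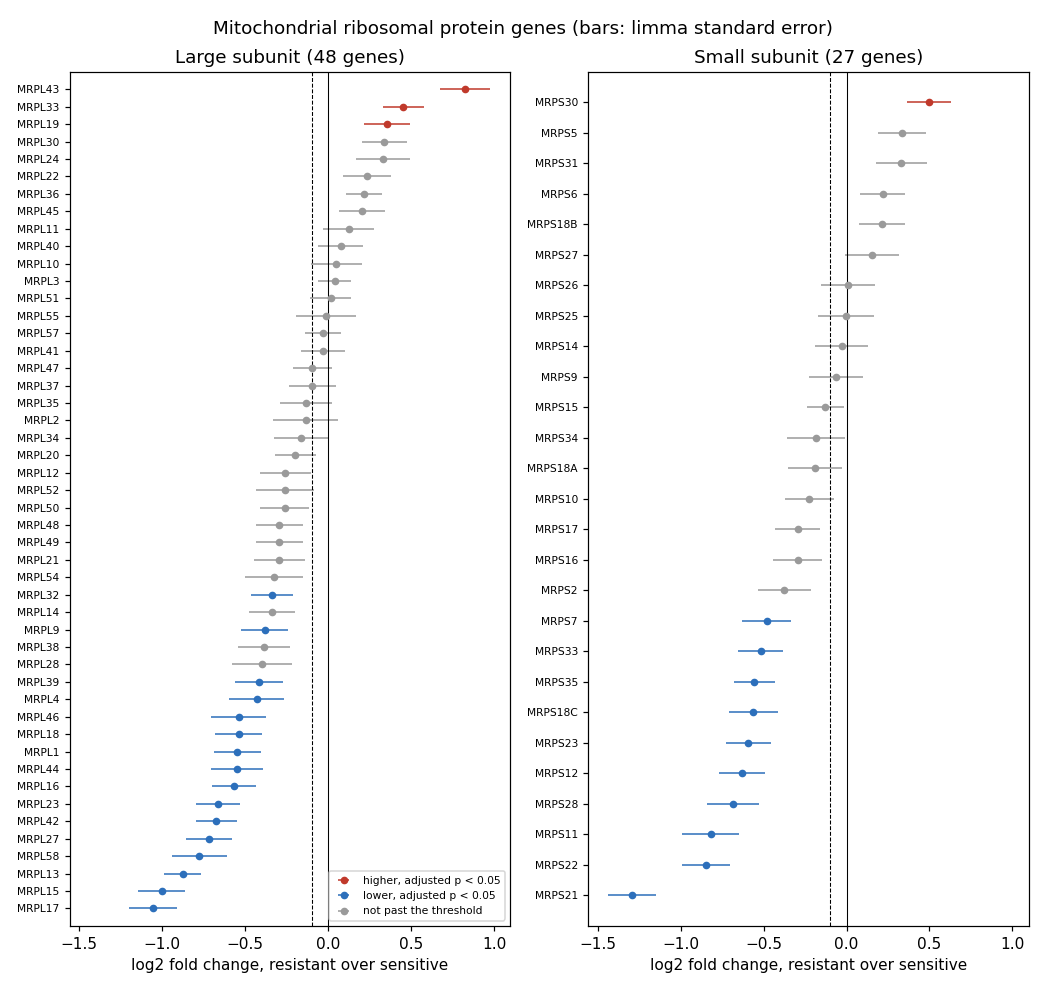
Log2 fold change, resistant over sensitive, of each of the 48 large-subunit (left) and 27 small-subunit genes (right), with bars for the limma standard error and a dashed line at the median of all tested genes (-0.10). With array-median scaling 26 genes were lower (blue), 4 were higher (red) and 45 did not pass the threshold (grey), and quantile normalization raised the number of higher genes to 17.

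**Figure D2:**
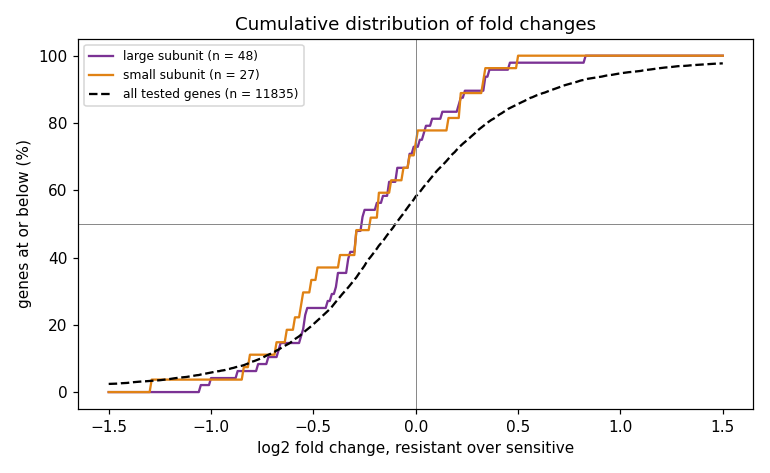
Cumulative share of genes (percent) at or below each log2 fold change, resistant over sensitive, for the large subunit (48 genes), the small subunit (27 genes) and all 11835 tested genes (dashed). Both subunit curves lie left of the dashed curve in the middle, with medians of -0.26 and -0.22 against -0.10, and the tails of all genes reach farther on both sides.

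The small-subunit proteins with a bacterial counterpart held the deepest fall. MRPS21, the counterpart of bacterial S21, had scaled signals of 35.1, 31.5 and 33.3 in resistant cells, against 95.6, 75.5 and 74.9 in sensitive cells. The resistant arrays lay close together, far under every sensitive array. The log2 fold change was -1.29 (SE 0.14, adjusted p = 1.9e-09), a 2.45-fold lower level. MRPS11, a protein of the platform of the small subunit, measured 28.4, 20.0 and 24.3 in resistant and 56.6, 37.5 and 35.7 in sensitive cells. The groups did not overlap, although the first sensitive array stood well above the other two (log2 fold change -0.82, adjusted p = 0.00022). MRPS28, the mitochondrial relative of bacterial S1, had 29.5, 21.3 and 25.5 in resistant and 43.9, 41.1 and 37.0 in sensitive cells (log2 fold change -0.69, adjusted p = 0.00069). MRPS12, a protein of the decoding centre, fell by 0.63 on the log2 scale (adjusted p = 0.00041), although the call was lost with the mean of its 4 probe sets (-0.35), of which the dimmest had 0.42. MRPS7 and MRPS18C were also lower. Of 17 members of this class these 6 were lower (35.3%, against 30.3% in the level range) and the other 11 did not pass, and the median log2 fold change was -0.29.

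Of the 28 large-subunit proteins with a bacterial counterpart, 11 were lower (39.3%) and 2 higher (7.14%), with a median of -0.28, against 30.3% lower and 12.2% higher among tested genes in the level range. MRPL17 measured 30.3, 36.1 and 41.4 in resistant cells, against 80.2, 69.8 and 72.5 in sensitive cells, a log2 fold change of -1.05 (SE 0.15, adjusted p = 2.3e-07). MRPL15 had 44.5, 34.6 and 41.0 in resistant and 88.5, 72.3 and 79.4 in sensitive cells (0.499 times the sensitive level, adjusted p = 4.1e-07). In both genes the highest resistant array lay well under the lowest sensitive one. MRPL13, the brightest of the falling members, measured 119, 99.9 and 110 in resistant and 214, 190 and 198 in sensitive cells (log2 fold change -0.88, SE 0.11, adjusted p = 4.6e-08). MRPL27, whose bacterial counterpart reaches into the peptidyl transferase centre, had 53.5, 45.1 and 43.1 in resistant and 85.0, 72.1 and 75.9 in sensitive cells (log2 fold change -0.72, adjusted p = 7.5e-05). The remaining 7 falls of this class ran from -0.66 in MRPL23 to -0.34 in MRPL32, and MRPL4, MRPL9 and MRPL32 among them lost the call in at least 9 of 18 other settings.

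Among the 30 mitochondria-specific members 9 were lower and 2 higher, with a median of -0.22. The share of falls is near the 30.3% of tested genes in the level range. MRPS22, in which mutations cause human mitochondrial disease, measured 33.5, 28.7 and 29.6 in resistant and 56.6, 53.9 and 54.4 in sensitive cells (log2 fold change -0.85, SE 0.15, adjusted p = 1.3e-05). The sensitive arrays differed little among themselves and lay well above the resistant ones. MRPL58, also known as ICT1, a peptidyl-tRNA hydrolase that rescues stalled mitochondrial ribosomes and is built into the large subunit, had 18.2, 14.8 and 17.1 in resistant and 34.6, 25.6 and 26.3 in sensitive cells (log2 fold change -0.78, adjusted p = 0.00028). MRPL42 measured 86.2, 71.6 and 87.4 in resistant and 141, 126 and 123 in sensitive cells (log2 fold change -0.67, adjusted p = 3.6e-05). MRPS35, among the brightest of the small subunit, fell by 0.56 on the log2 scale (adjusted p = 0.00049), with 78.2 ± 5.47 in resistant and 115 ± 8.95 in sensitive cells (SD, n = 3 each). MRPL46, which shares its promoter region with MRPS11, had 18.3, 14.7 and 14.3 in resistant and 26.2, 21.3 and 21.3 in sensitive cells. Its log2 fold change of -0.54 (adjusted p = 0.010) was smaller than that of MRPS11, and its call was lost without the first sensitive array.

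The 4 genes with a higher signal in resistant cells came from both classes. MRPL43, a mitochondria-specific protein of the large subunit, measured 74.5, 53.8 and 52.8 in resistant cells, against 36.1, 30.9 and 34.2 in sensitive cells, a 1.77-fold higher level (log2 fold change 0.82, SE 0.15, adjusted p = 4.0e-05). MRPS30 had 121, 88.2 and 112 in resistant and 78.7, 68.9 and 78.6 in sensitive cells (log2 fold change 0.50, SE 0.13, adjusted p = 0.0029). In structures of the human mitochondrial ribosome this protein sits in the large subunit in spite of its name. MRPL33 measured 120, 110 and 102 in resistant and 81.3, 76.5 and 84.3 in sensitive cells (log2 fold change 0.45, adjusted p = 0.0038). In these 3 genes every resistant array was above the highest sensitive one. The call of MRPS30 was lost without the mean-variance trend (adjusted p = 0.062). MRPL19 had 82.9, 61.6 and 75.7 in resistant and 53.5, 60.6 and 56.6 in sensitive cells, so that the second resistant array was barely above the second sensitive one. Its call (log2 fold change 0.36, adjusted p = 0.042) was lost in 9 of 18 other settings, among them without resistant replicate 1 or 3 and without each of the sensitive replicates.

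**Figure D3:**
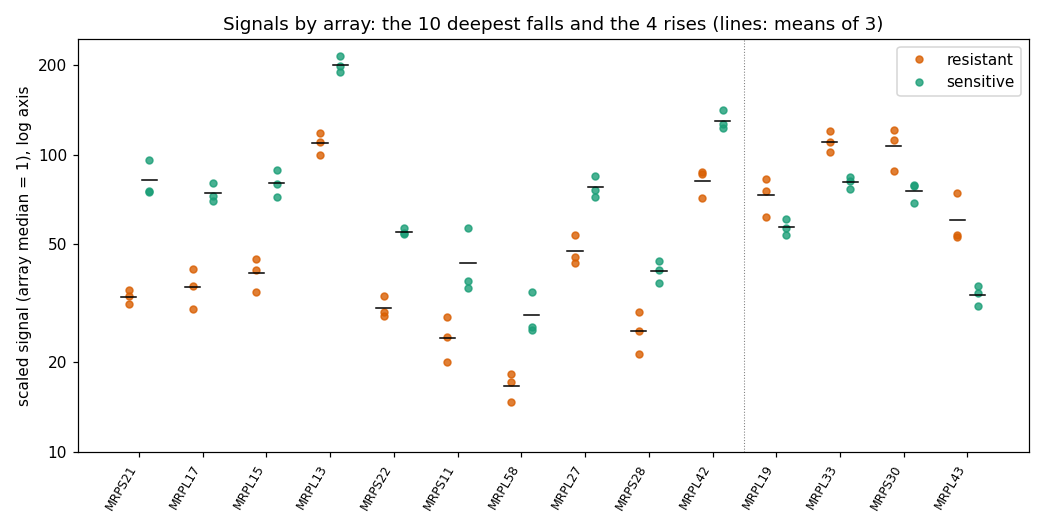
Scaled signal (array median = 1, log axis) on each array for the 10 deepest falls and the 4 rises, with 3 resistant arrays (left, orange) and 3 sensitive arrays (right, green) for each gene and a line at each mean. MRPS21 lay at 31.5 to 35.1 in resistant and 74.9 to 95.6 in sensitive cells, and MRPL43 at 52.8 to 74.5 in resistant and 30.9 to 36.1 in sensitive cells.

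The brightest members did not move together. The 3 brightest of the large subunit did not pass the threshold, while of the 3 brightest of the small subunit MRPS35 was lower and MRPS30 higher, as described above, and MRPS15 did not pass. A value that did not pass is not shown to be equal in the groups. MRPL3, the brightest of all, averaged 260 ± 30.8 in resistant and 252 ± 17.8 in sensitive cells (SD, n = 3 each; log2 fold change 0.04, SE 0.10). MRPL36 averaged 193 ± 21.9 and MRPL57 169 ± 21.9 in resistant cells, against 165 ± 12.5 for MRPL36 and 171 ± 11.2 for MRPL57 in sensitive cells. The log2 fold change of MRPL36 was 0.22 (SE 0.11, adjusted p = 0.12), and it was called higher in 4 of 18 other settings, 2 of them other scalings. MRPS15, the brightest of the small subunit, averaged 143 ± 5.96 in resistant and 156 ± 16.4 in sensitive cells, a log2 fold change of -0.13 (SE 0.11). The dimmest members were MRPL55, MRPL2 and MRPL52 in the large subunit, with log2 fold changes of -0.01, -0.14 and -0.26, and MRPS18A, MRPS9 and MRPS25 in the small subunit, with -0.19, -0.06 and 0.00. None of these 6 passed the threshold, and the groups overlapped in each.

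Humans have 3 paralogs of bacterial S18, which occupy different places in the ribosome, MRPS18A being in the large subunit. MRPS18C measured 36.2, 31.8 and 36.0 in resistant and 55.1, 46.5 and 52.0 in sensitive cells (log2 fold change -0.56, adjusted p = 0.0025). MRPS18A averaged 19.2 ± 2.34 in resistant and 21.9 ± 2.28 in sensitive cells (adjusted p = 0.39), and MRPS18B 89.9 ± 15.2 in resistant and 77.5 ± 12.5 in sensitive cells (adjusted p = 0.24, SD, n = 3 each). With array-median scaling MRPS18C was the only paralog called, but MRPS18B was called higher under quantile normalization (0.40) and under scaling to the probe sets that passed the filter (0.31). A second probe set of MRPS18B had a log2 fold change of -0.18, against 0.21 in its brightest one. A second, dim probe set of MRPS18C had a log2 fold change of 0.12, and the mean of both no longer passed (-0.22, adjusted p = 0.34).

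Measures that compare the large with the small subunit did not all point the same way. Of the large-subunit genes 16 were lower (33.3%) and 3 higher (6.25%), and of the small-subunit genes 10 were lower (37.0%) and 1 higher (3.70%). Among tested genes in the level range of the members 30.3% were lower and 12.2% higher, and among all tested genes 22.5% and 12.4%. The median log2 fold change was -0.26 for the large and -0.22 for the small subunit, a difference of -0.04, which is under the spread between replicates (SD 0.05). With MRPS18A and MRPS30 counted where structures place them, the medians were -0.26 and -0.29, and the difference changed sign to 0.03. The 25 small-subunit genes then had 10 lower calls (40%), the 1 higher call having moved with MRPS30. The summed scaled signal of the large subunit was 3240, 2598 and 3019 in resistant cells, against 3661, 3227 and 3213 in sensitive cells, and that of the small subunit was 1489, 1171 and 1311 in resistant and 1736, 1486 and 1480 in sensitive cells. The first resistant array lay above the second and the third sensitive array in both sums. Within an array the scaling cancels in the ratio of small to large subunit, which was 0.460, 0.451 and 0.434 in resistant and 0.474, 0.460 and 0.461 in sensitive cells. The mean ratios were 0.448 ± 0.0128 in resistant and 0.465 ± 0.00790 in sensitive cells (SD, n = 3 each), and the highest resistant value lay just under the lowest sensitive one. The ratio of the subunit medians was 0.687, 0.723 and 0.727 in resistant and 0.835, 0.799 and 0.820 in sensitive cells, also without overlap (0.712 ± 0.0219 in resistant and 0.818 ± 0.0183 in sensitive cells). Both ratios, taken by symbol, put the small subunit lower relative to the large one in resistant cells, while the medians of the log2 fold changes by symbol differ slightly the other way. The sums and ratios were not redone with MRPS18A and MRPS30 in the large subunit. None of these measures was tested.

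**Figure D4:**
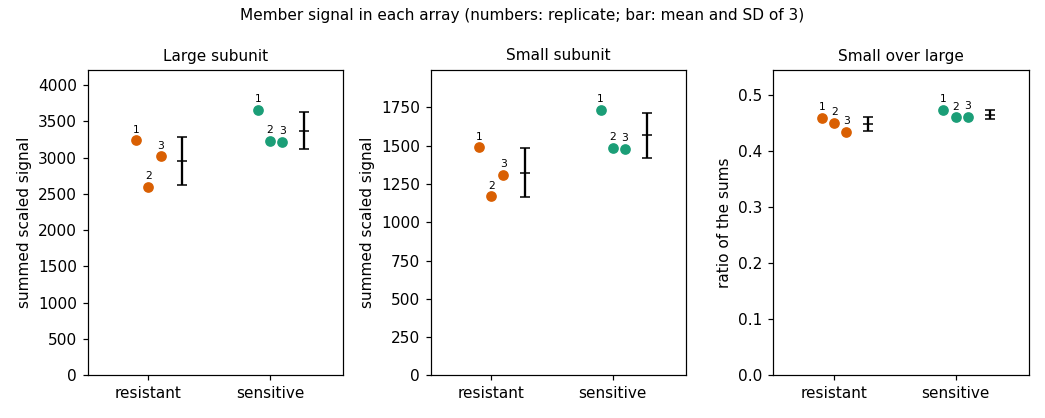
Summed scaled signal of the 48 large-subunit genes (left) and the 27 small-subunit genes (middle), and the small over large ratio of these sums (right), on each of 3 resistant and 3 sensitive arrays, numbered by replicate, with the mean and SD. The ratio was 0.434 to 0.460 in resistant and 0.460 to 0.474 in sensitive cells, and resistant replicate 2 had the lowest sum of both subunits.

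The arrays of a group differed in a common way across the members. Resistant replicate 2 was the lowest of its group for 65 of the 75 members and resistant replicate 1 the highest for 62, while sensitive replicate 1 was the highest for 71. The median level of all tested genes followed a like order, with 11.7, 9.38 and 9.72 on the resistant and 11.4, 10.7 and 10.8 on the sensitive arrays. The number of members called lower was 37 without resistant replicate 1 (30.2% of all genes), 22 without resistant replicate 2 (17.0%) and 19 without sensitive replicate 1 (16.1%). The number called higher was 8 without resistant replicate 2 (11.8% of all genes). Without sensitive replicate 1 the large subunit kept only 10 lower calls in place of 16.

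Several probe sets measured 37 of the members, and 29 members had more than 1 past the filter on dim signals. All probe sets had the same sign in 21 of the 29, and no member was called in opposite directions by 2 of its probe sets. The 4 probe sets of MRPS22 all fell, with log2 fold changes of -0.84 to -1.05, although all 4 are of a type that may cross-hybridize. The 3 probe sets of MRPS30 all rose (0.50, 0.81 and 0.48), and the second of MRPL43 rose by 0.73, while its dimmest had 0.25 (adjusted p = 0.55). For MRPL30 the brightest probe set had a log2 fold change of 0.34 (adjusted p = 0.053) and the next one 0.02, while 3 dimmer ones rose by 0.49 to 0.53. For MRPL47 the brightest had -0.09 and a dim one fell by 0.69. Over all probe sets past the filter, 11 of the 127 for members were higher (background 9.52%) and 34 were lower (background 19.5%). The genes MRPL53 and MRPS24 had only probe sets that name a further gene and were not counted as members. The probe set of MRPL53 and CCDC142 measured 64.6, 50.8 and 50.4 in resistant and 39.9, 34.8 and 32.1 in sensitive cells (log2 fold change 0.63, adjusted p = 0.0021), and that of MRPS24 and its readthrough transcript had 0.05 (adjusted p = 0.79).

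The members are spread over 21 chromosomes, and those of a few chromosomes moved one way. All 3 on chromosome 8, MRPL13, MRPL15 and MRPS28, were lower, where 37.1% of 410 tested genes were lower and 26.8% higher. On chromosome 15 both members, the divergent pair MRPS11 and MRPL46, were lower, where 49.0% of tested genes were lower and the median log2 fold change was -0.42. On chromosome 5 all 4 members had positive values with a median of 0.23, of which only MRPS30 was called, and the median of all its tested genes was 0.05. On chromosome 17, 4 of 8 members were lower, where 16.2% of tested genes were lower. Both members on chromosome 4, MRPL1 and MRPS18C, were lower, where 24.1% of tested genes were lower. All members had negative values on chromosomes 7 (3 members, 2 lower), 9 (3, 0 lower), 16 (2, 0 lower) and 19 (4, 2 lower). The medians of all tested genes there were -0.16, -0.14, -0.14 and -0.02.

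The values of the members also went with those of the genes beside them. For each gene the median log2 fold change of the 5 tested genes on either side was taken. Around MRPS22 this median was -0.81, with 8 of 10 neighbours lower, around MRPL13 -0.65, with 6 lower, and around MRPL15 -0.50, with 7 lower. Around MRPL43 it was 0.52, with 7 of 10 neighbours higher, among them the adjacent TWNK, which encodes the mitochondrial DNA helicase (log2 fold change 0.51). Other members stood apart from their surroundings. The median was -0.05 around MRPS21, 0.11 around MRPL58, 0.13 around MRPL27 and -0.27 around MRPS30. Around the chromosome 4 members it was 0.02 for MRPL1 and 0.19 for MRPS18C. Over the 75 members Pearson's r between the gene and its neighbours was 0.46 and Spearman's rho 0.38, against 0.33 and 0.33 over 11824 tested genes with a position. These are correlations across genes of the same 6 arrays, in which nearby genes share neighbours, and they are given as a description.

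**Figure D5:**
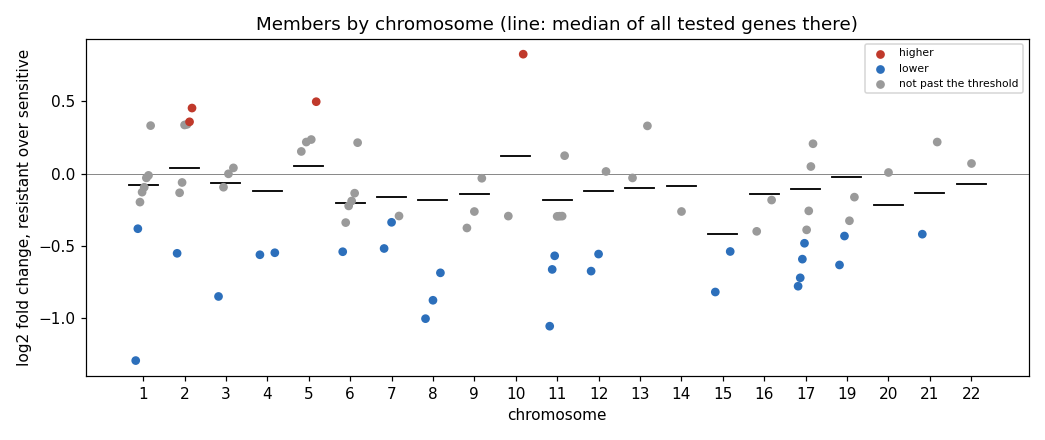
Log2 fold change, resistant over sensitive, of each member by chromosome, with a line at the median of all tested genes of that chromosome. Members called lower (blue) include all 3 on chromosome 8, both on chromosome 15 and both on chromosome 4. The 4 called higher (red) lie on chromosomes 2, 5 and 10.

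Among other genes of mitochondrial translation, 4 ribosomal proteins with other symbols were measured, of which 3 were lower. They were GADD45GIP1, with 9.78 ± 2.17 in resistant and 16.2 ± 3.71 in sensitive cells (SD, n = 3 each, log2 fold change -0.72, adjusted p = 0.0022), PTCD3 (-0.47, adjusted p = 0.015) and CHCHD1 (-0.38, adjusted p = 0.028). DAP3, the GTP-binding protein of the small subunit, had -0.15 (adjusted p = 0.38). Of 26 factors for assembly of the mitochondrial ribosome and modification of its RNA, 12 were lower and 3 higher, with a median of -0.33. MTG2, a GTPase of large-subunit assembly, fell by 0.88 (adjusted p = 0.00047) and NGRN, which is needed for the large-subunit RNA, by 0.76 (adjusted p = 1.9e-06) on the log2 scale. NGRN measured 102, 83.8 and 98.2 in resistant and 156, 157 and 167 in sensitive cells. Of 16 translation factors only 3 were called, MTIF2 (initiation) higher by 0.36 (adjusted p = 0.037), and MTFMT, which formylates the initiator tRNA, and SLIRP, which stabilizes messages, lower (-0.59 and -0.52, adjusted p = 0.0064 and 0.0016). The elongation factor TUFM had -0.19 (adjusted p = 0.31).

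Of 12 genes for mitochondrial transcription and DNA maintenance, 4 were lower and 1, TWNK, was higher, with a median of -0.28. The topoisomerase TOP1MT had 5.11 ± 0.994 in resistant and 9.75 ± 1.08 in sensitive cells (log2 fold change -0.95, adjusted p = 0.00012), and POLG, the mitochondrial DNA polymerase, fell by 0.75 (adjusted p = 0.00088). TFAM (-0.23, adjusted p = 0.21) and the RNA polymerase POLRMT (-0.18, adjusted p = 0.49) did not pass. Of 11 regulators of nuclear genes for mitochondrial proteins, 3 were lower and the others did not pass, with a median of -0.05. GABPB1, a partner subunit of GABPA, measured 9.85, 6.79 and 9.72 in resistant and 18.8, 20.1 and 17.1 in sensitive cells, with no overlap (log2 fold change -1.10, SE 0.18, adjusted p = 3.6e-06), and its relative GABPB2 fell by 0.82 (adjusted p = 0.0049). GABPA itself had 0.03 (adjusted p = 0.93), YY1 -0.09 (adjusted p = 0.57), PPRC1 0.29 (adjusted p = 0.20) and NRF1 -0.46, with resistant signals all below the sensitive ones (adjusted p = 0.060). Of all tested genes 22.5% were lower and 12.4% higher. In the order given, the lists had 75%, 46.2%, 12.5%, 33.3% and 27.3% lower. Their shares higher were 0%, 11.5%, 6.25%, 8.33% and 0%. Their median levels ran from 11.7 to 51.7, against 10.8 for all tested genes, and no background by level was taken for them.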

How the data were processed

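RNA of 3 resistant and 3 sensitive HT29 samples was measured, with groups as in the submitters' labels. The values deposited by the authors are linear intensities, 1 per probe set, made with MAS5 (version not given in the sources used here). Of 54675 probe sets, 62 controls were left out. The platform annotation gave 41091 probe sets 1 gene, 1801 several and 11721 none, and Entrez identifiers were matched to RefSeq genes of GRCh38.p14 for current symbols (41037 matched) and gene order. Promoters came from RefSeq too.

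Signals were divided by the array median, the first step of the study's methods, values under 0.01 were set to 0.01, and a linear model was fitted to the log2 signals in limma 3.58.1 under R 4.3.3 (lmFit, then eBayes with trend). A gene was tested where its scaled signal averaged 1 or more across the 6 arrays (11835 genes, all 75 members among them), with Benjamini-Hochberg adjustment over them and a call at an adjusted p under 0.05. Probe-set values came from the same fit over 26833 probe sets. The procedure was tested on simulated data. Figures were drawn with matplotlib 3.10.9.

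The members, gene lists and tests were chosen with earlier results of these data known. The rule named the 10 largest rises and falls, the 3 brightest and dimmest members of each subunit, the MRPS18 paralogs and up to 2 genes of each other list. MRPL46 and the other members named beyond it were chosen after their values were seen. The number of arrays limits the precision. Alternatives covered scaling, low signals, filter, test, a replicate block, each array left out, the probe set of a gene and the fold threshold. Batches were not tested, since no scan dates were used here.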

Additional observations from a re-analysis of the deposited data

How the results depend on the processing

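The main counts of 26 lower and 4 higher members (large subunit 16 and 3, small subunit 10 and 1) were recomputed under each alternative. The t-test, run on the signals and filter used here, gave 11 lower and 1 higher with equal variances (large 6 and 1, small 5 and 0). With unequal variances it gave 0 and 0 members in either subunit, and 134 lower and 76 higher of all genes (1.13% and 0.642%). At an unadjusted p under 0.05 it had 26 members, counted without regard to direction. The share of all genes at that p was not counted for this test, so the number cannot be set against a background. In the main fit 40 of the 75 members and 5179 of the 11835 tested genes had an unadjusted p under 0.05. Requiring at least 3-fold in the main fit also gave 0 members. limma without the trend gave 21 lower and 2 higher (small 0 higher), against 15.9% and 9.48% of all genes. Higher members numbered 17 with quantile normalization (large 11, small 6), 13 with scaling to the median past the filter (large 8, small 5) and 8 with no further scaling (large 5, small 3). Of all genes 21.1%, 19.4% and 16.1% were higher in these settings, in that order. Leaving out 1 array gave 19 to 37 lower and 3 to 8 higher members (16.1% to 30.2% and 9.56% to 12.9% of all genes). In the large subunit 10 to 24 were lower and 2 to 5 higher, and in the small subunit 9 to 13 and 1 to 3. The medians under quantile normalization were -0.082 for all members, -0.085 for the large and -0.042 for the small subunit. The large minus small difference was -0.084 to 0.017 without 1 array and 0.034 by structure. The small to large ratio by symbol, resistant over sensitive, was 0.964 from sums and 0.871 from medians.

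A replicate block gave 35 lower and 8 higher members (large 5, small 3 higher), which include all 26 and 4 calls. The block raised the calls among all 11835 tested genes as well. Of these, 3267 were lower and 1775 higher with the block, against 2659 lower and 1472 higher in the main fit. Deviations of same-numbered samples correlated at 0.075, 0.023 and 0.048, each weak but the best of its sample. The labels do not say whether same-numbered samples were handled together. Pairing was not tested, and the main fit has no block.

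Some members that were not called changed sign. With quantile normalization MRPL2 had 0.0099, MRPL55 0.13, MRPL57 0.080, MRPS15 0.0032, MRPS25 0.18 and MRPS9 0.12. With no further scaling MRPL55 had 0.031, MRPL57 0.014 and MRPS25 0.042. With the median past the filter MRPL55 had 0.087, MRPL57 0.070, MRPS25 0.098 and MRPS9 0.038, and with the mean of all probe sets MRPL2 had 0.022. Leaving out 1 array gave -0.42 to 0.047 for MRPL2, -0.027 to 0.14 for MRPL3, -0.12 to 0.13 for MRPL55, -0.13 to 0.060 for MRPL57, -0.10 to 0.17 for MRPS25 and -0.21 to 0.012 for MRPS9. The causes were not tested.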
